A study of Mus musculus with 17 samples.

Results

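Clones G2 and G5 are 2 induced pluripotent stem cell (iPSC) lines of mouse that carry no functional Nanog gene, and they were compared with each other across the transcriptome. The members of the comparison were chosen by title: 2 RNA-seq libraries of clone G2 and 2 of clone G5, which make 4 of the 17 libraries of the series. A further 2 libraries, of Nanog-null embryonic stem cells (ESC), were read as another line of the same genotype. All 6 libraries are labelled genotype Nanog -/-, strain 129/B6 (v6.5) and passage 6. Their descriptions carry the same code (AC), which the wild-type (WT) ESC of that strain share. Those WT ESC are labelled passage 10 to 15, so they are not matched to the 6 libraries in passage.

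Per the labels' protocols, the fibroblasts that gave rise to the clones came from chimeric embryos, made by injecting Nanog -/- ESC with a constitutive GFP into blastocysts and sorting the GFP-positive cells. Retroviruses delivered the mouse factors Oct4, Sox2, Klf4 and, in some experiments, c-Myc, and colonies were picked onto feeder cells in medium with 2i and LIF. The labels do not say which clone received c-Myc. Each line is 1 clone, so the comparison is of these 2 lines and gives no estimate of how iPSC clones vary in general. No label states that the 2 libraries of a line come from separate cultures, so p-values measure only the spread between these libraries, which may be technical.

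Nanog is a homeodomain transcription factor of the core pluripotency network, which works with Oct4 (Pou5f1) and Sox2. It marks the naive state of the epiblast and of ESC. The 2i inhibitors block MEK and GSK3, and GSK3 inhibition mimics Wnt signalling, while LIF acts through STAT3; together they hold mouse cells in the naive state. Clones picked from 1 reprogramming experiment are known to differ in imprinting, in the share of cells that pass through a 2-cell-like state, in chromosome content and in the feeder cells carried along.

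The clone libraries held between 17682401 and 32459969 fragments assigned to genes, and the Nanog-null ESC libraries held 20368476 and 43501951. Between 12656 and 12680 genes reached 1 FPKM (fragments scaled to transcript length and library size) in the clone libraries. Fragments of ribosomal protein genes made up 5.72% to 6.23% of the clone libraries, and mitochondrial genes 3.82% to 4.05%. Nanog itself was read at 27.2 and 27.8 FPKM in G2, at 40 and 43 in G5 and at 45.8 and 49.5 in Nanog-null ESC, against 568 and 574 in WT ESC. All 6 Nanog-null libraries lay far below both WT ESC libraries, so the gene's level goes with the labels, though the files do not say which part of the gene these fragments come from. Nanog was lower in G2 than in G5 (log2 difference -0.54 ± 0.07 SE, n = 2 libraries a clone, edgeR adjusted p = 1.89e-07), and the clones' libraries did not overlap. The pluripotency factors Pou5f1 (507 to 613 FPKM over the 4 libraries) and Sox2 (38.5 to 41.8 FPKM) were high in both clones.

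The clones differed from each other by more than libraries of 1 clone did. The median gene differed by 0.0932 in log2 CPM (counts scaled to library size) between the libraries of G2 and by 0.107 between those of G5. Across the clones the same median was 0.196 to 0.22 over the 4 pairs of libraries. Against Nanog-null ESC it was 0.228 to 0.237 for G2 and 0.259 to 0.268 for G5, and against WT ESC it was 0.643 to 0.716 for both clones. The distance between the clones was thus above the spread within each and slightly below the distance of either to the Nanog-null ESC.

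**Figure D1:**
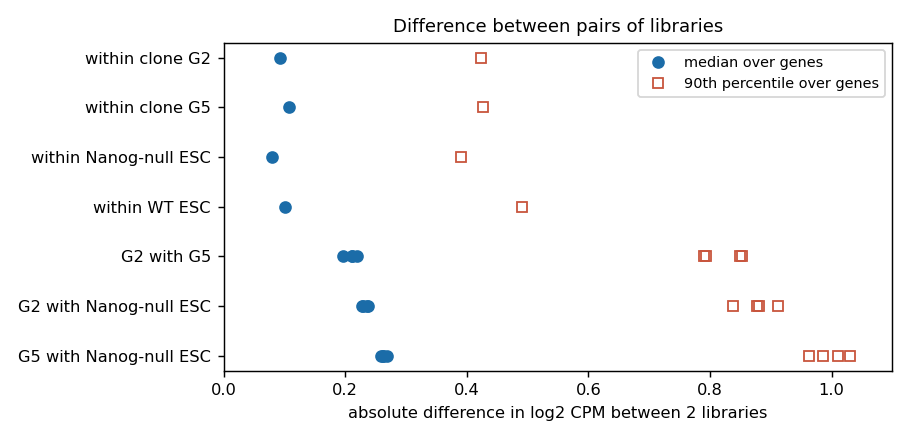
Absolute difference in log2 CPM between pairs of libraries, as the median (circles) and the 90th percentile (squares) over genes; each symbol is 1 pair. Pairs within a line sit at medians of 0.0804 to 0.107, and pairs of G2 with G5 sit at 0.196 to 0.22.

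In edgeR's quasi-likelihood test on the 4 libraries, 5515 of 15647 genes (35.2%) passed a Benjamini-Hochberg adjusted p of 0.05. Of these, 2812 genes (18.0% of those tested) were higher in G2 and 2703 (17.3%) were lower. Most differences were small: 819 genes (5.23%) were both called and at least 2-fold apart, with 468 higher (2.99%) and 351 lower (2.24%) in G2. The libraries of the clones did not overlap for 5279 of the called genes, beside 63.9% of all genes tested. The count rests on the tool and on how the spread is estimated: DESeq2 called 3295 genes, limma on log2(FPKM + 1) called 3176, and limma over all 17 libraries called 820. Without replicate 1 of G2 the count was 3588.

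The largest difference in each direction was in a gene expressed in 1 clone and read at under 1 FPKM in the other. Reg3g, which encodes a secreted antibacterial lectin, was read at 14.1 and 12.7 FPKM in G2, at 0.604 and 0.301 in G5 and at 0.269 and 0.378 in Nanog-null ESC. Both G2 libraries stood above all others, and Reg3g was 30.1-fold higher in G2 (log2 difference 4.91 ± 0.23 SE, adjusted p = 6.04e-17). On the other side, the predicted gene Gm17487 was read at 25.7 and 23.2 FPKM in G5, at 0.0933 and 0.031 in G2 and at 0.303 and 0.379 in Nanog-null ESC. Its fragments numbered 2301 and 1896 in G5 and 11 and 2 in G2, a fitted log2 difference of -8.38 ± 0.16 (SE, adjusted p = 2.13e-27). Only the G5 libraries carried this RNA at more than 1 FPKM among the 6 Nanog-null libraries.

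Rlim encodes the X-linked ubiquitin ligase that degrades Rex1 and thereby activates Xist. It was read at 33.6 and 33.7 FPKM in G2, at 33.1 and 34.4 in Nanog-null ESC and at 1.51 and 1.5 in G5. The loss was confined to G5 among these 6 libraries, with 335 and 309 fragments remaining there, and the log2 difference between the clones was 4.5 ± 0.07 (SE, adjusted p = 3.06e-29). Xist, the RNA that coats the inactive X, was at 12.7 and 12.4 FPKM in G2, 6.59 and 6.76 in G5 and 11.3 and 12 in Nanog-null ESC. It was lower in G5 than in G2 in every library (log2 difference 0.92 ± 0.06 SE for G2 minus G5, adjusted p = 1.85e-13).

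Plagl1 (Zac1), a paternally expressed imprinted gene that encodes a zinc-finger protein, was read at 33.8 FPKM in both G2 libraries and at 4.00 and 3.95 in G5. The Nanog-null ESC libraries lay between the clones at 12.8 and 17 FPKM. Plagl1 was thus 8.02-fold higher in G2 than in G5 (log2 3 ± 0.07 SE, adjusted p = 1.64e-24). None of the 2 tested neighbours on either side of it (Stx11, Sf3b5, Ltv1, Phactr2) passed the test. Gtpbp1, which encodes a GTP-binding protein related to translation factors, was read at 9.96 and 9.73 FPKM in G2, at 88.9 and 79.8 in G5 and at 13.2 in both Nanog-null ESC libraries. It was 8.48-fold higher in G5 (log2 G2 minus G5 -3.08 ± 0.07 SE, adjusted p = 1.28e-25), and G5 stood above both other lines.

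The other genes among the 12 largest differences higher in G2 had log2 differences of 1.93 to 2.85. They include Ptgds (prostaglandin D synthase), the acute-phase protease inhibitor Serpina3n, the complement component C3, and the matrix-related genes Egfl6, Smoc2 and Cpz. Serpina3n was at 53.9 and 56.2 FPKM in G2, against 8.37 and 9.64 in G5 and 7.19 and 8.67 in Nanog-null ESC. C3 was at 22.5 and 22.8 FPKM in G2, against 5.52 and 5.81 in G5 and 7.28 and 6.21 in Nanog-null ESC. For both genes G2 stood apart, and G5 and the Nanog-null ESC lay close together. Among the genes highest in G5, the secretory phospholipase receptor gene Pla2r1 was at 6.02 and 6.22 FPKM there, against 0.678 and 0.622 in G2 and 0.834 and 0.581 in Nanog-null ESC. Bik, which encodes a pro-apoptotic BH3-only protein, was at 9.51 and 7.77 FPKM in G5, against 3.01 and 3.12 in G2 and 3.60 and 3.46 in Nanog-null ESC. Bik lies on the distal side of chromosome 15, which is described below. Both genes were high in G5, and the other two lines lay near each other.

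**Figure D2:**
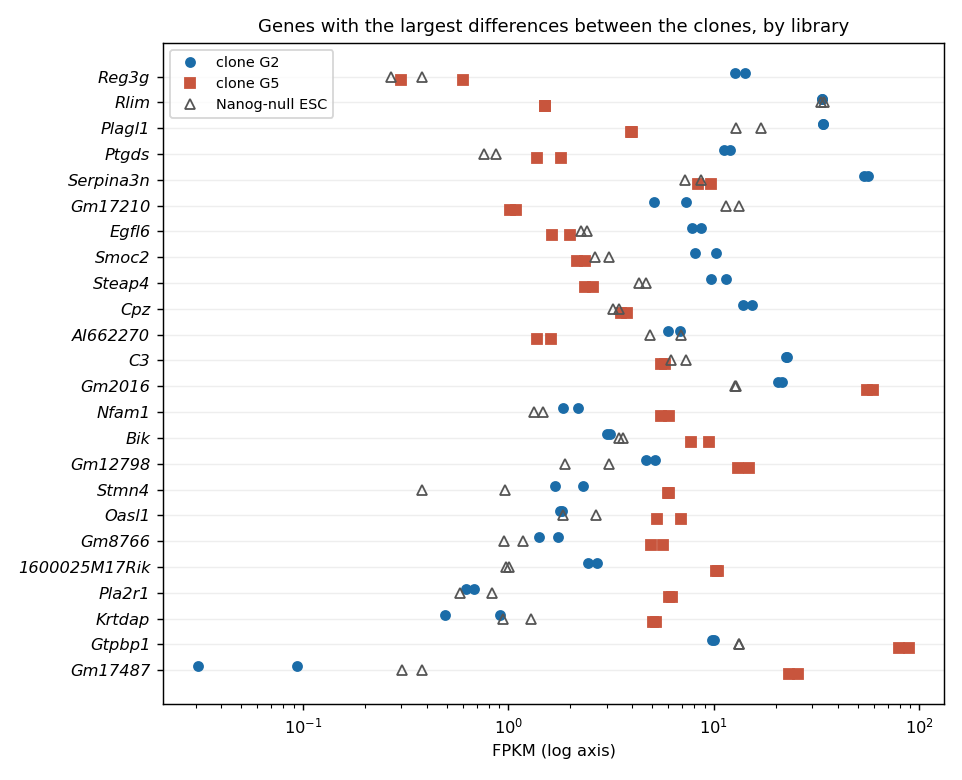
FPKM of the 12 genes most higher and the 12 most lower in G2 among called genes of at least 5 FPKM in a clone, by library, on a log axis: circles G2, squares G5, triangles Nanog-null ESC. Rlim is at 1.51 and 1.5 only in G5, and Gm17487 is at 25.7 and 23.2 only in G5.

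For the 5513 called genes also measured in Nanog-null ESC, the mean level of that line fell between the clones for 2538 (46%), beyond G2 for 2021 (36.7%) and beyond G5 for 954 (17.3%). Over all 15642 genes tested, these shares were 28%, 41.4% and 30.7%. Called genes tend to have the clones further apart, which leaves more room between them. The Nanog-null ESC mean was nearer to G2 for 3447 of the called genes (62.5%), beside 56.7% over all genes tested. Against Nanog-null ESC, 7613 of 15815 genes (48.1%) were called for G2 and 1052 (6.65%) were also at least 2-fold apart. For G5 these were 7896 of 15687 genes (50.3%) and 1403 (8.94%). These comparisons use the same 2 Nanog-null ESC libraries, so their values are given side by side and their overlap was not counted.

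Each clone had some genes far from Nanog-null ESC. The iron exporter gene Slc40a1 was at 28.1 and 27.6 FPKM in G2 and 28.2 and 25.5 in G5, against 5.63 and 6.26 in Nanog-null ESC, a level that did not separate the clones (log2 0.07 ± 0.06 SE, adjusted p = 0.415). Serpinb9c was at 4.45 and 4.57 FPKM in G2, 10.0 and 9.70 in G5 and 1.27 and 1.28 in Nanog-null ESC, so the clones differed from each other as well (log2 -1.12 ± 0.10 SE, adjusted p = 2.02e-10). Genes of the Y chromosome were far lower in both clones than in Nanog-null ESC. The RNA helicase gene Ddx3y was at 1.93 and 2.08 FPKM in G2, at 1.11 and 1.16 in G5 and at 22.6 and 23.0 in Nanog-null ESC. The translation factor gene Eif2s3y was at 4.04 and 4.20 FPKM in G2, 1.95 and 2.58 in G5, and 25 and 24.4 in Nanog-null ESC. Both genes were also higher in G2 than in G5, by 0.83 ± 0.12 (adjusted p = 2.4e-06) and 0.99 ± 0.14 (adjusted p = 1.11e-06) on the log2 scale. Ddx3y (21.5 and 21.6 FPKM in WT fibroblasts), Eif2s3y (18.3 and 18.9) and Xist (39.5 and 39.9) are all above the clones' level in those cells, and the summed fibroblast markers given further on were also higher in G2 (3404 and 3512 FPKM against 1908 and 1926 in G5). The part of these cells in the 3 genes' differences was not tested. Ube1y1 was at 0.0093 to 0.0255 FPKM in the 4 clone libraries and at 7.80 and 8.18 in Nanog-null ESC, while Uty, at 0.263 to 0.424 FPKM in the clones, did not pass the test between them (adjusted p = 0.197). In bulk RNA, fewer cells with a gene and less RNA per cell cannot be told apart.

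Among the autosomes and X, chromosome 15 stood apart in its median difference between the clones, while called genes were found on all of them. On the others 31.6% to 38.4% of genes were called. Without the distal genes of chromosome 15, described below, 5288 of 15361 tested genes were still called. Of the genes tested, 15071 matched the GENCODE M21 annotation by gene identifier, and for the other autosomes and X the median log2 difference was between -0.03 and 0.04. On chromosome 15 it was -0.20, and 323 of 575 genes (56.2%) were called, beside the 35.2% of all genes. A scan along the gene order, which left at least 40 genes on each side, put the largest step on this chromosome between Kdelr3 and Ddx17. This scan was added after the chromosome medians had been seen, and the split it chose is a description.

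The 289 genes before the step had a median log2 difference of 0.04, and 96 of them (33.2%) were called. The 286 genes after it had a median of -0.51, and the medians of the 4 pairs of libraries lay between -0.512 and -0.485. Of these distal genes 227 (79.4%) were called, 218 lower in G2 and 9 higher, and 92% were on the lower side whether called or not. The distal median was -0.03 for G2 against Nanog-null ESC and 0.46 for G5 against Nanog-null ESC, so G5 was the line that stood apart. The second largest step in the genome, on chromosome 7, was -0.13 from the proximal to the distal side, against -0.54 on chromosome 15. Only RNA was measured, DNA copy number was not analysed here, and the cause was not tested.

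Named genes on the distal side moved to unlike extents. Josd1 (a deubiquitinase gene) was at 10.3 FPKM in both G2 libraries, at 16.3 and 16.1 in G5 and at 9.53 and 9.63 in Nanog-null ESC. Sun2, a nuclear envelope gene, was at 11 and 13.5 FPKM in G2, 18.5 and 16.3 in G5 and 9.45 and 10.1 in Nanog-null ESC. Gtpbp1, described above, lies between these genes in gene order, and its 8.48-fold difference stood far above theirs (log2 -0.64 and -0.65). The simple epithelial keratin gene Krt8 was at 378 and 348 FPKM in G2, at 813 and 711 in G5 and at 229 and 214 in Nanog-null ESC, so it was higher in G5 than in either other line (log2 -1.06 ± 0.07 SE, adjusted p = 4.41e-14). Its partner Krt18 (-1.06) and Krt7 (-1.08) moved alike. Also distal and lower in G2 were Atf4, the transcription factor of the integrated stress response (-0.69), the heterochromatin protein gene Cbx5 (-0.74) and Srebf2, the regulator of cholesterol synthesis (-0.51). Against the direction of the region, Hoxc6 (1.08) and Hoxc8 (0.82) were higher in G2.

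**Figure D3:**
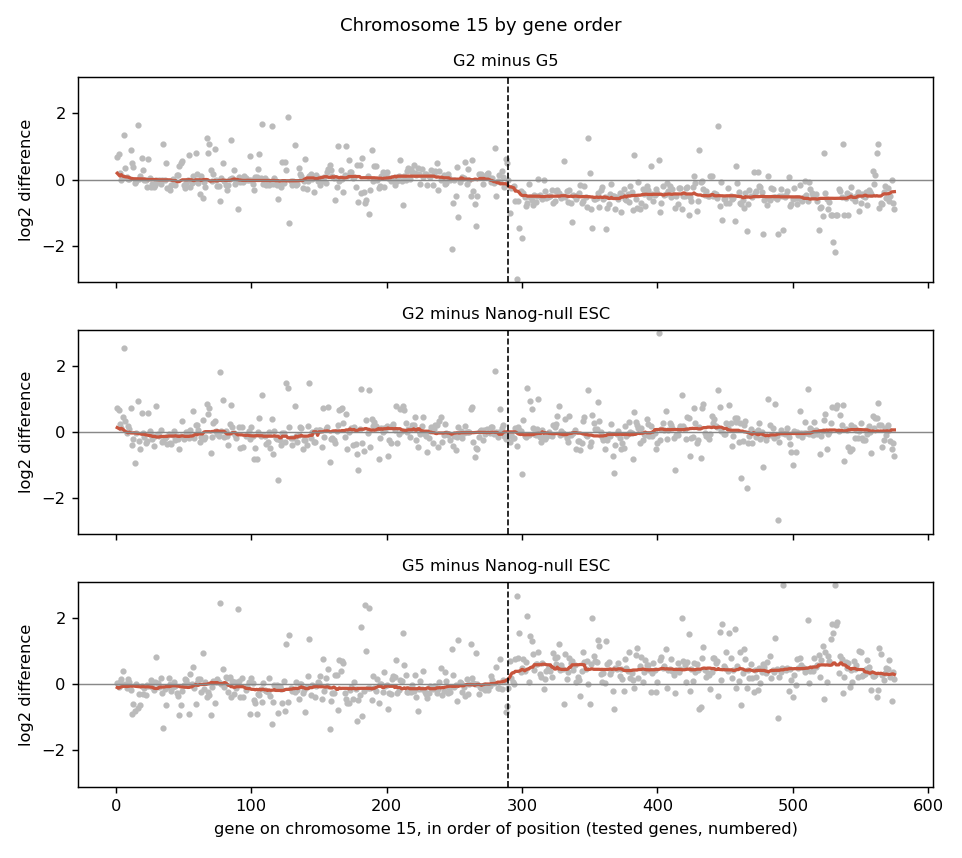
Log2 difference of each tested gene on chromosome 15 in order of position (grey points, values beyond 3 drawn at 3), with the running median over 41 genes (line), for G2 minus G5, G2 minus Nanog-null ESC and G5 minus Nanog-null ESC; the dashed line is the step before Ddx17. Beyond it the median is -0.51 between the clones, -0.03 for G2 and 0.46 for G5 against Nanog-null ESC.

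Most fibroblast markers were higher in G2. Of 30 tested, 28 were higher in G2, none was lower, and the median log2 difference was 0.91, beside 18.0% called higher and a median of -0.0025 over all genes. The collagen gene Col3a1 was at 240 and 246 FPKM in G2, 77.0 and 70.5 in G5 and 129 and 132 in Nanog-null ESC (log2 1.72 ± 0.06 SE, adjusted p = 9.15e-20). Dcn (decorin, a matrix proteoglycan) was at 161 and 185 FPKM in G2 against 58.8 and 55.9 in G5 (1.6). Col1a1 was at 278 and 303 FPKM against 107 and 114 (1.43). G2 was the highest of the Nanog-null lines for all 3 genes. Limma over all 17 libraries called 16 of the 30, and 13 were called at a fold of at least 2.

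The summed level of the 30 fibroblast markers was 3404 and 3512 FPKM in G2, 1908 and 1926 in G5, 2773 and 2722 in Nanog-null ESC, and 777.5 and 755 in WT ESC. In WT mouse embryonic fibroblasts (MEF), which are c57/b6 cells of another batch (JI) and not the feeders of these cultures, it was 16790 and 16830. None of the 30 markers was at 0 in any clone library. In WT MEF 29 of them were at or above the clones' level, and 1, Dcn, was below it. Fibroblast markers thus moved with the clone, and their part in the other differences was not tested. Of the genes tested, 6631 were at or above the clones' level in WT MEF. Leaving these genes out, an alternative added after seeing the data, left 3286 of 9016 genes called. Of 6 macrophage markers tested, 3 were lower in G2 and 2 higher, beside 17.3% and 18.0% of all genes. Their median was -0.36, and all 6 are at or above the clones' level in WT MEF. The lysozyme gene Lyz2 (log2 1.02, adjusted p = 0.0069) and the endotoxin co-receptor gene Cd14 (0.79, adjusted p = 0.0206) were higher in G2, as the fibroblast markers were, and Cd68 (-0.50), Cd74 (-0.75) and the growth factor receptor gene Csf1r (-0.80) were lower. DESeq2 called none of the 6 higher. The summed level of the macrophage list was lower in G2, at 44.3 and 42.8 FPKM in G2 and 59.4 and 60.5 in G5, against 749.6 and 749 in WT MEF. The defining macrophage genes Emr1 and Ptprc were at most at 0.0481 FPKM in the clone libraries.

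**Figure D4:**
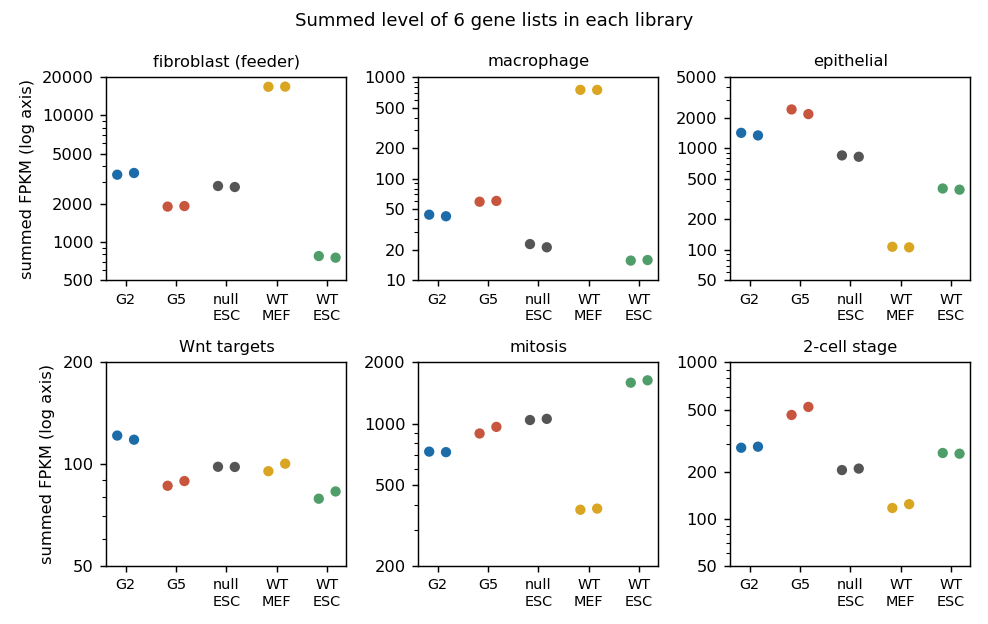
Summed FPKM of 6 gene lists in each library on log axes, for clones G2 and G5, Nanog-null ESC, WT MEF and WT ESC (2 libraries each). The fibroblast sum is 3404 and 3512 in G2 and 1908 and 1926 in G5, and the 2-cell sum is 284.6 and 289.1 in G2 and 461.4 and 519.5 in G5.

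Genes of the 2-cell stage were lower in G2. These genes are switched on at the first activation of the embryonic genome and, in pluripotent cultures, in a small fraction of cells that pass through a 2-cell-like state. Of 14 tested, 13 were lower in G2, none higher, with a median of -1.03, beside 17.3% called lower over all genes. The transcription factor gene Dux, which activates this programme, was at 1.75 and 1.5 FPKM in G2, at 3.82 and 3.85 in G5 and at 1.16 and 1.17 in Nanog-null ESC (log2 -1.19, adjusted p = 5.93e-06). Zscan4f was at 21 and 24.4 FPKM in G2, 44.1 and 50.4 in G5 and 12.9 and 9.43 in Nanog-null ESC (-1.14, adjusted p = 3.1e-14). Zfp352 was at 0.687 and 1.25 FPKM in G2 and at 2.75 and 2.48 in G5 (-1.54, adjusted p = 2.21e-07). G5 was the highest of the 3 lines for these genes, and the libraries did not overlap.

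The Zscan4 genes and the predicted genes of this list are near-identical copies, so fragments may have been split among them and the single values are uncertain. The 5 Zscan4 genes tested fell together, from -0.67 (Zscan4e) to -1.14 (Zscan4f), and Gm2016 was at -1.44. The member that did not pass was Eif1a (-0.02, adjusted p = 0.813). All 13 are below the clones' level in WT MEF. At a fold of at least 2, 7 of the 13 were called, and limma over all 17 libraries called 1.

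Most interferon response genes were lower in G2. Of 25 tested, 17 were lower in G2 and 5 were higher, with a median of -0.69. Over all genes 17.3% were called lower and 18.0% higher, so the higher count is near that share. Limma over all 17 libraries called 9 lower and 2 higher, and at a fold of at least 2 these were 10 and 1. The lower genes include the antiviral effectors Isg15, Rsad2, Mx2 and Oasl1 and the transcription factors Irf7 and Irf9. Isg15, a ubiquitin-like modifier, was at 9.32 and 7.66 FPKM in G2, 23.8 and 21.7 in G5 and 8.63 and 7.43 in Nanog-null ESC (log2 -1.38 ± 0.12 SE, adjusted p = 4.83e-11). Bst2 (tetherin) was at 68.2 and 66.4 FPKM in G2, 157 and 141 in G5 and 46.9 and 46.2 in Nanog-null ESC (-1.13, adjusted p = 5.94e-15). Irf7 was at 3.04 and 3.06 FPKM in G2, 8.58 and 5.89 in G5 and 2.89 and 2.77 in Nanog-null ESC (-1.37, adjusted p = 7.81e-09). For all 3 genes G5 was above both other lines, whose levels lay near each other.

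The 5 genes that were higher in G2 were Ifitm3, Ifitm2, Ifit3, Ifit2 and B2m. Ifitm3, a membrane protein that restricts viral entry, was at 127 and 145 FPKM in G2, 63.3 and 69.3 in G5 and 86.5 and 73.1 in Nanog-null ESC (1.04 ± 0.07 SE, adjusted p = 3.5e-13). The interferon-induced Ifit genes of chromosome 19 went apart: Ifit1 was at 1.39 and 1.1 FPKM in G2 and 3.16 and 2.83 in G5 (-1.22, adjusted p = 4.05e-08), and Ifit3 was at 3.08 and 3.15 in G2 and 1.92 and 1.81 in G5 (0.75, adjusted p = 0.000284). Of the 25 genes, 15 are at or above the clones' level in WT MEF. Among the other 10, 7 were lower and 1 higher in G2, with a median of -0.84.

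The promoters of 4 of these genes are shown because the genes carry the same kind of motif and yet differ in direction. Sequences run 5′ to 3′ along the gene from 250 bases before to 50 after its start, from RefSeq on GRCm38.p6, and 22 of the 26 listed genes matched that table. Capitals mark the ISRE-type motif GAAANNGAAA, or TTTCNNTTTC on the other strand, and matches can overlap. Isg15 (chr4:156200769-156201068, minus strand) and Ifit1 (chr19:34640639-34640938, plus strand) were lower in G2, and Ifit3 (chr19:34583279-34583578, plus strand) and Ifitm3 (chr7:141010695-141010994, minus strand) were higher.
Isg15: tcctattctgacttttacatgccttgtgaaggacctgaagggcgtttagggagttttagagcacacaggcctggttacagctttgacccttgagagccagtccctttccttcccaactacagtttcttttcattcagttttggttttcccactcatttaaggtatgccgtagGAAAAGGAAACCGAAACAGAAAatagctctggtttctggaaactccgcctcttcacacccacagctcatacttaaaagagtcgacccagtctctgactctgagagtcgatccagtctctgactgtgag
Ifit1: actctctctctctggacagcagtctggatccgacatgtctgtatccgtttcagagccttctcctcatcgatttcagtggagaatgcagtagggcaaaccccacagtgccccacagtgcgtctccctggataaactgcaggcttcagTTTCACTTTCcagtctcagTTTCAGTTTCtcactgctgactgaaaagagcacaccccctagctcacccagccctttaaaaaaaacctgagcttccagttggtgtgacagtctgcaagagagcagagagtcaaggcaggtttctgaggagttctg
Ifit3: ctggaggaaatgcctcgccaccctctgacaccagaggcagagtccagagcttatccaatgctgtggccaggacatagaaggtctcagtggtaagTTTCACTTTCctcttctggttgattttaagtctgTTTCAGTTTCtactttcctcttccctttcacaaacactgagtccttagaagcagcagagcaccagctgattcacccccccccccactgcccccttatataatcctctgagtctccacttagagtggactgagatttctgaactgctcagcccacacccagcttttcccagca
Ifitm3: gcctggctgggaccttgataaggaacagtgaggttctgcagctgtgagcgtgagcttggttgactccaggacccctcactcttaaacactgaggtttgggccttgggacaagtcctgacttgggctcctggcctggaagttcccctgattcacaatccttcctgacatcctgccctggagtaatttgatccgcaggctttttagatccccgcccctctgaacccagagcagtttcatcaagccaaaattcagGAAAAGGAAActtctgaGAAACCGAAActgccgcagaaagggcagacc

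The motif occurred in 10 of the 22 matched genes, beside 3.99% of all 27025 genes of the table. Of the genes lower in G2, 5 of 13 matched had it, as had 4 of the 5 higher in G2. A match describes these letters only and does not show that a factor binds.

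Targets of Wnt signalling were higher in G2. Of 16 tested, 12 were higher, none was lower, and the median was 0.46, beside 18.0% called higher over all genes. The stem cell receptor gene Lgr5 was at 2.01 and 2.50 FPKM in G2, 0.745 and 0.555 in G5 and 0.737 and 0.700 in Nanog-null ESC (log2 2.07 ± 0.15 SE, adjusted p = 1.6e-12). The transcription factor gene Sp5 was at 9.10 and 8.66 FPKM in G2, 3.30 and 3.78 in G5 and 2.53 and 2.71 in Nanog-null ESC (1.35 ± 0.10 SE, adjusted p = 3.99e-12). For both, G2 stood above the other lines. Notum, a secreted Wnt inhibitor, was at 15.5 and 14.7 FPKM in G2, 7.36 and 6.76 in G5 and 10.2 and 10.6 in Nanog-null ESC (1.08, adjusted p = 3.44e-11). Lef1, the nuclear effector, was at 2.1 and 2.17 FPKM in G2, 1.06 and 0.974 in G5 and 2.59 and 2.76 in Nanog-null ESC (1.21, adjusted p = 5.88e-08). For these, Nanog-null ESC lay between the clones or above G2.

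Of the 16 Wnt targets, 15 are below the clones' level in WT MEF, and 11 of those were higher in G2. Limma on log2(FPKM + 1) called 8 of the 16, limma over all 17 libraries called 3, and 4 were called at a fold of at least 2. The brachyury gene T, Wnt3 and Wnt3a had differences of 0.42, 0.26 and 0.67 that did not pass the test (adjusted p = 0.244, 0.711 and 0.241). One of the 11 listed genes in the promoter table, Sp5, carried the TCF/LEF-type motif CTTTGAT on either strand, which is found in 4.29% of all genes there. Its promoter is shown with the motif in capitals, as the only match in the list (chr2:70474673-70474972, plus strand, GRCm38.p6).
Sp5: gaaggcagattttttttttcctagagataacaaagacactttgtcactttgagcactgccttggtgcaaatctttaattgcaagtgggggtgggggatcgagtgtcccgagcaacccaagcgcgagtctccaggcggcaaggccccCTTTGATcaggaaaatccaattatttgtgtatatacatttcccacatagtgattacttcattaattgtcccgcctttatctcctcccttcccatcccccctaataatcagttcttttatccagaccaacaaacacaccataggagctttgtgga

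The pluripotency network was expressed in both clones with small shifts in both directions. Of 20 tested general pluripotency genes, 12 were lower in G2 and 3 higher, with a median of -0.20. Over all genes 17.3% were called lower and 18.0% higher. Limma over all 17 libraries called 5 of them lower, and 1 was called lower at a fold of at least 2. The Nodal antagonist gene Lefty2 was at 19.2 and 20.5 FPKM in G2, 39.0 and 43.4 in G5 and 13.2 and 14.9 in Nanog-null ESC (log2 -1.04 ± 0.06 SE, adjusted p = 3.4e-14). The Nodal co-receptor gene Tdgf1 was at 135 and 126 FPKM in G2, 206 and 240 in G5 and 163 and 174 in Nanog-null ESC (-0.76 ± 0.06 SE, adjusted p = 6.16e-11). Fbxo15 was at 120 and 111 FPKM in G2 and at 184 and 201 in G5 (-0.72, adjusted p = 3.3e-11). All 3 genes were lower in G2 without overlap. Utf1, a chromatin factor of undifferentiated cells, was the reverse, at 25.1 and 27.3 FPKM in G2 and 18 and 17.2 in G5 (0.59, adjusted p = 8.57e-07). Esrrb was left out because 1 clone library had no valid estimate for it.

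Of 19 genes of the naive state and the LIF response, 11 were higher in G2 and 2 lower (median 0.22). Over all genes these shares were 18.0% and 17.3%. Among the 14 of them below the clones' level in WT MEF, 8 were higher and 2 lower (median 0.21). Socs3, the feedback inhibitor of LIF signalling, was at 20.0 and 18.4 FPKM in G2, 13.1 and 13.8 in G5 and 21.8 and 23.2 in Nanog-null ESC (0.54 ± 0.07 SE, adjusted p = 1.91e-07). Klf4 was at 26.5 and 24.9 FPKM in G2, 20.7 and 20.5 in G5 and 30.4 and 27.9 in Nanog-null ESC (0.33 ± 0.06 SE, adjusted p = 5.65e-05). For both genes G5 was the lowest of the 3 lines. The imprint-protecting zinc-finger gene Zfp57 was at 181 and 174 FPKM in G2 and at 235 and 263 in G5 (-0.48, adjusted p = 1.06e-07). Limma on log2(FPKM + 1) called 7 of this list higher, limma over all 17 libraries called none, and none reached a fold of at least 2. Myc was at 9.2 and 11 FPKM in G2, 6.95 and 8.22 in G5 and 20.6 and 16.9 in Nanog-null ESC (0.44 ± 0.10 SE, adjusted p = 0.000684). The Klf4 and Myc values hold the cell's own genes and any fragments of the retroviral copies that map to them, which cannot be told apart here. Both genes are also at or above the clones' level in WT MEF, and the fibroblast markers were higher in G2 too. The part of fibroblasts in these 2 differences was not tested.

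**Figure D5:**
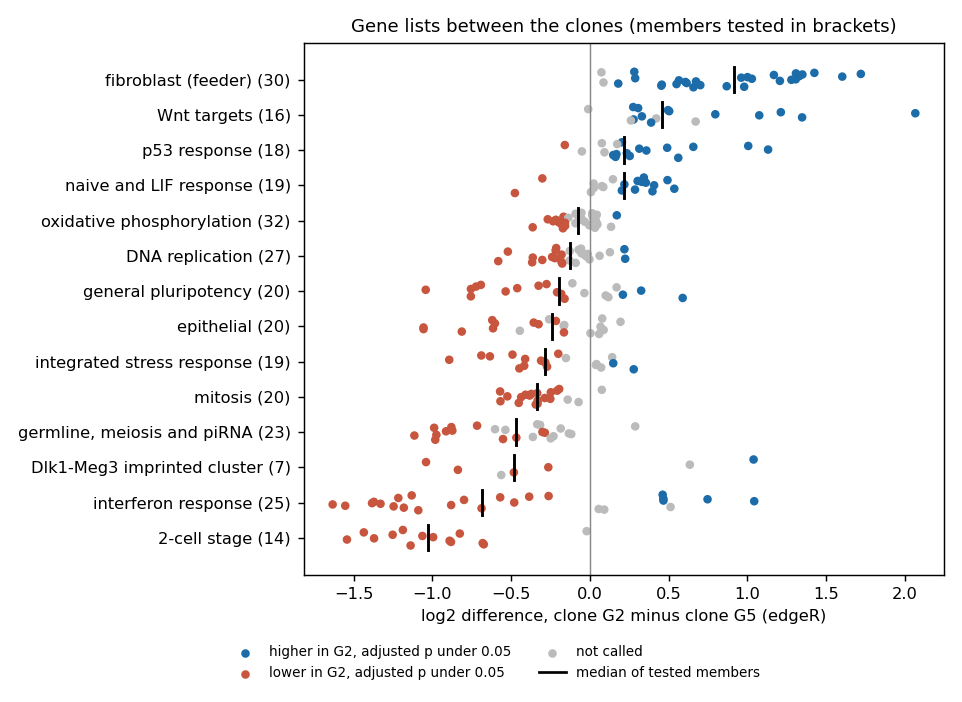
Log2 difference of G2 minus G5 for each tested member of 14 gene lists: dark blue points are higher in G2, red lower, grey not called, and the black bar is the list's median. The median runs from 0.91 for the fibroblast markers to -1.03 for the 2-cell genes.

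Genes of cell division and of the germ line were lower in G2, beside 17.3% of all genes called lower. Of 20 mitosis genes, 17 were lower and none higher (median -0.33), with the topoisomerase gene Top2a at 78.9 and 77.7 FPKM in G2, 103 and 114 in G5 and 124 and 132 in Nanog-null ESC. The spindle checkpoint kinase gene Bub1 was at 15.8 and 16.3 FPKM in G2, 22.5 and 26.3 in G5 and 22.3 and 22.5 in Nanog-null ESC (log2 -0.57 ± 0.07 SE, adjusted p = 3.1e-08). G2 was the lowest of the 3 lines for both. The G2 libraries also carry the highest summed fibroblast markers of the 3 lines. In WT MEF 19 of the 20 mitosis genes are below the clones' level, and 16 of those 19 were lower in G2. The part of fibroblasts in the mitosis differences was not tested. The differences were small: none of the mitosis genes was called at a fold of at least 2, and limma over all 17 libraries called 5.

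Of 23 germline, meiosis and piRNA genes, 12 were lower in G2 and none higher (median -0.47). Limma over all 17 libraries called 5, and 1 was called at a fold of at least 2. Among the 12, Mov10l1 (-0.99) and Smc1b (-0.91) lie on the distal side of chromosome 15. On that side 92% of genes were lower in G2, whether called or not. The TFIID subunit gene Taf7l was at 10.3 and 9.22 FPKM in G2, 22.7 and 21.1 in G5 and 4.32 and 4.01 in Nanog-null ESC (-1.12 ± 0.08 SE, adjusted p = 3.8e-12). Tex19.1, which restrains transposons, was at 27.4 and 24.3 FPKM in G2, 50.8 and 51.0 in G5 and 32.7 and 34.8 in Nanog-null ESC (-0.98 ± 0.07 SE, adjusted p = 2.03e-13). Sycp3, a component of the synaptonemal complex, was at 4.87 and 4.72 FPKM in G2 and at 9.02 and 10.1 in G5 (-0.98, adjusted p = 2.53e-07). G5 was above G2 in every library for the 3 genes. The Rhox homeobox genes Rhox6 (106 and 104 FPKM in G2, 207 and 177 in G5) and Rhox9 (92.3 and 86.9 against 180 and 151) were lower in G2 as well, 2 of the 3 tested in their list. In Nanog-null ESC they stood at 74.8 and 77.8 FPKM and at 55.9 and 60.9 FPKM.

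Among p53 response genes, 13 of 18 were higher in G2 and 1, Btg2, was lower (median 0.22), beside 18.0% called higher over all genes. The cyclin G gene Ccng1 was at 107 and 118 FPKM in G2, 55.3 and 58.2 in G5 and 113 and 113 in Nanog-null ESC (log2 1.01 ± 0.06 SE, adjusted p = 1.97e-14). The cell cycle inhibitor gene Cdkn1a was at 160 and 159 FPKM in G2, 103 and 102 in G5 and 129 and 127 in Nanog-null ESC (0.66 ± 0.06 SE, adjusted p = 8.12e-11). The death receptor gene Fas was at 6.52 and 8.42 FPKM in G2, 3.52 and 3.17 in G5 and 4.97 and 4.59 in Nanog-null ESC (1.13 ± 0.13 SE, adjusted p = 5.39e-08). G5 was the lowest of the 3 lines for each. The count fell to 8 with limma on log2(FPKM + 1), to 8 without replicate 2 of G2 and to 3 with limma over all 17 libraries, and 2 genes were called at a fold of at least 2. Genes of the integrated stress response went the other way, with 12 of 19 lower in G2 and 2 higher (median -0.28), beside 17.3% called lower over all genes. The lower count was 6 in edgeR over the 11 libraries of batch AC, 1 with limma over all 17 libraries and 0 at a fold of at least 2. The pathway's factor Atf4 lies on the distal side of chromosome 15. The stress-induced gene Nupr1, which does not, was at 47.1 and 43.1 FPKM in G2, 81.4 and 88.4 in G5 and 61.2 and 61.4 in Nanog-null ESC (-0.89 ± 0.07 SE, adjusted p = 5.96e-12).

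Imprinted genes differed one by one. Of the 27 tested outside the Dlk1-Meg3 cluster, 7 were higher in G2, led by Plagl1, and 5 were lower, which is near the shares over all genes (18.0% higher and 17.3% lower). The growth inhibitor gene Cdkn1c was at 24.0 and 22.6 FPKM in G2, 61.6 and 52.1 in G5 and 60.5 and 53.3 in Nanog-null ESC (log2 -1.27 ± 0.07 SE, adjusted p = 2.01e-15). G2 stood apart and G5 overlapped Nanog-null ESC. Snrpn was at 50.2 and 49.9 FPKM in G2, 28.8 and 28.9 in G5 and 36.3 and 36.8 in Nanog-null ESC (0.81 ± 0.06 SE, adjusted p = 1.77e-12). H19 was at 2200 and 1890 FPKM in G2 and 2130 and 1850 in G5, which overlapped (0.05 ± 0.07 SE, adjusted p = 0.649), and at 1290 and 1350 in Nanog-null ESC. In the Dlk1-Meg3 cluster 4 of 7 tested genes were lower in G2 and 1 higher. The maternally expressed RNA Meg3 was at 56.7 and 51.7 FPKM in G2, 67.5 and 66.6 in G5 and 77.2 and 85.0 in Nanog-null ESC (-0.26 ± 0.06 SE, adjusted p = 0.000796), and Rian was at 29.6 and 31.0 FPKM in G2 and 40.2 and 45.2 in G5 (-0.48 ± 0.06 SE, adjusted p = 2.76e-07). Both RNAs were read well above 0 in every library of both clones, and both are at or above the clones' level in WT MEF. The cluster's summed level was 627.5 and 633.6 FPKM in WT MEF, against 96.1 and 93.9 in G2 and 125.3 and 129.8 in G5. The part of feeder cells in these readings was not tested.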

How the data were processed

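RNA of 17 mouse libraries was sequenced, and 4 of them (clones G2 and G5) and the 2 of Nanog-null ESC are analysed here. The deposited tables give, per the file headers, raw fragment counts per gene, which are estimated counts that need not be whole (97.5% to 98.8% of values lay within 0.01 of a whole number), and FPKM per gene. The authors' tables also hold scaled fragment signals, which were not used here. Cuffdiff 2.1.1, TopHat2 2.0.7, Bowtie2 2.0.5 and CASAVA are listed in the submitters' processing notes, as are mm10 and NCBIM37, with no role given. The deposited files hold no gene coordinates, so chromosome and gene order came from GENCODE M21 by gene identifier.

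Counts were rounded to whole numbers and tested with edgeR 4.0.16 (filterByExpr, TMM scaling, quasi-likelihood test, Benjamini-Hochberg adjustment at 0.05) in R 4.3.3, on the 4 clone libraries alone and on each clone with Nanog-null ESC. Standard errors are the log2 difference over the square root of the F statistic. Genes with a status other than OK in a library of the fit were left out. Alternatives were DESeq2 1.42.0, limma 3.58.1 on log2(FPKM + 1), other scalings, filters and sample sets, and leaving out each library. The fit was tested on simulated data. Named genes were drawn from the 12 largest differences each way among called genes of at least 5 FPKM in a clone with libraries that did not overlap. They were also drawn from up to 3 called members per list and direction, and from the 5 largest against Nanog-null ESC. A fixed set of pluripotency, X, Y and imprinted genes was added. Not every gene so chosen is named in the text. Where over 50% of a list moved one way, not all its called members are named. For most lists 1 or 2 further members were given for their roles after their values were seen. The clones, the 36 gene lists and the rules were chosen with earlier results of these data known. Replicate numbers did not pair the libraries (correlation of deviations across genes -0.00309). A few genes are not reported here.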

Additional observations from a re-analysis of the deposited data

How the results depend on the processing

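The number of genes called between the clones was 5515, and it depended on the tool and on the libraries that set the spread. It was 3176 with limma on log2(FPKM + 1), 3139 with limma on log2(FPKM + 0.1), 3295 with DESeq2, 3474 with edgeR over the 11 libraries of batch AC and 820 with limma over all 17 libraries with batch as a term. Of the DESeq2 calls 3290 were among the 5515, as were 2987 of the limma calls. A fold of at least 2 left 819, and leaving out genes at or above the clones in WT MEF left 3286 of 9016 tested, where fewer genes entered. Leaving out 1 library gave 3588 to 4977. RLE scaling, library totals, no filter and the FPKM filter gave 4965 to 5562, and the fit with the replicate block, which is no pairing by the labels, gave 5715. For G2 against Nanog-null ESC, limma gave 4978, DESeq2 5073, the fold limit 1052, the replicate block 7687 and leaving out 1 library 5632 to 7172, beside 7613. For G5 against Nanog-null ESC the fold limit gave 1403, the replicate block 8192 and leaving out 1 library 5658 to 7894, beside 7896. Apart from the counts that follow from fewer genes or samples, the cause was not tested.

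The Nanog-null ESC mean lay between the clones for 56.7% of called genes with a fold of at least 2. The distal chromosome 15 median was -0.426 on the log2(FPKM + 1) scale and -0.519 to -0.485 without 1 library. Of 186 tested genes chosen by the naming rules, 73 kept call and direction under every alternative. Genes that reversed had small differences: H19 (-0.0536 without replicate 1 of G2, -0.0475 without replicate 2 of G5, up to 0.151 without another), Slc40a1 (-0.00123 without replicate 2 of G5, up to 0.145 without another) and Vldlr (-0.00717 and -0.0119 with limma at pseudocounts 1 and 0.1, -0.00717 over all 17 libraries). With 2 libraries a clone, precision rests on the spread between these libraries, whose depth ranged from 17682401 to 32459969 fragments.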

Other observations

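Markers of early lineages were read in both clones. Of 16 primitive endoderm genes tested, 7 were higher in G2 and 2 lower (median log2 difference 0.14), beside 18.0% and 17.3% of all genes. Of the 7, Pdgfra, Sparc and Lamc1 are at or above the clones' level in WT MEF, and Pdgfra and Sparc are also in the fibroblast list, which was higher in G2. Among the 11 genes below the clones' level in WT MEF 4 were higher, and limma on log2(FPKM + 1) called 4 of the 16 higher. Gata6, the transcription factor that specifies this lineage, was at 20.6 and 19.5 FPKM in G2, 14.8 and 15.1 in G5 and 18.2 and 18.7 in Nanog-null ESC, against 0.359 and 0.258 in WT ESC. Of 13 trophoblast genes, 4 were lower in G2 and 3 higher, beside 17.3% and 18.0% of all genes, and limma on log2(FPKM + 1) called none of the 3. Krt7, the largest among the lower genes by level, lies on the distal side of chromosome 15 and was at 47.0 and 41.9 FPKM in G2 and 108 and 92.7 in G5.

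The neighbours of genes that were nearly silent in 1 line differed in how they moved. Krtdap, a keratinocyte gene, was at 0.906 and 0.492 FPKM in G2 and 5.21 and 5.07 in G5 (log2 -2.73, edgeR adjusted p = 5.9e-07), and the next genes on one side, Dmkn (-0.58, adjusted p = 1.78e-05) and Sbsn (-0.86, adjusted p = 8.32e-11), were lower in G2 too. Beside Pla2r1 (-2.46), Itgb6 was lower in G2 (-0.81, adjusted p = 0.0194) and Rbms1 did not pass (0.01, adjusted p = 0.891). Beside Reg3g (4.91), AW146020 was lower in G2 (-0.37, adjusted p = 0.0103). On the other side of Reg3g, Lrrtm1 did not pass (0.80, adjusted p = 0.115). The gene after Lrrtm1, Ctnna2, was higher in G2, as Reg3g was (1.69, adjusted p = 0.00205). These neighbours were taken from gene order for the largest differences after their values were seen, and no test was made of neighbours as a class.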
